A study of Sus scrofa with 48 samples.

Results

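Cholesterol synthesis was followed in porcine perirenal adipose tissue (PRAT), the fat around the kidney, through 7 genes, of 11402 gene symbols on the array. The enzymes of the pathway, HMGCS1, IDI1, FDFT1, SQLE, MSMO1 (written SC4MOL for some probes) and DHCR7, and its inhibitor INSIG1 were taken by the gene name that the array files give each probe. They were held by 17 probes, of which 13, for 5 genes, were well above background on at least 24 of the 48 arrays and could be tested. None of the 7 genes codes for a lipoprotein receptor, so the values below concern synthesis and its control, and lipoprotein uptake was followed only through a separate list of genes.

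The samples came from 48 castrated male pigs of the pure Large White breed, 12 for each combination of diet and line, and each pig was measured on 1 one-colour array. The low-fat low-fiber (LF) diet was rich in starch, part of which gave way to rapeseed and soybean oils and wheat straw in the high-fat high-fiber (HF) diet. Fat, fiber and starch thus changed together and cannot be told apart. The lines were selected for low or for high residual feed intake (RFI), the feed eaten beyond that predicted from growth and maintenance, and the labels name them RFIneg and RFIpl. The labels give an age of 132 days for all pigs. No pig was fed both diets, so each diet difference compares different animals.

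Cells build cholesterol from acetyl-CoA through mevalonate and isoprenoid units that are joined to squalene, closed to lanosterol and then trimmed to cholesterol. Genes of nearly every step are switched on by SREBP-2, a transcription factor that is released from the endoplasmic reticulum when sterols are scarce, whereas INSIG proteins hold it back when sterols are plentiful. The related SREBP-1 acts mainly on fatty acid synthesis, and adipose tissue is known as a large store of free cholesterol.

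The probes are 60 bases long, and which stretch of a transcript each one reads matters because probes of the same gene did not always vary alike. For SQLE and for MSMO1, the first 30 bases are shown of pairs of probes whose sequences overlap, with the bases shared by both probes in capitals. The SQLE pair shared a run of 57 bases and the MSMO1 pair runs of 30 and 23 bases, so each pair is 1 measured site and not 2 independent ones.
SQLE A_72_P088686: CAGTATCTGAGACAAGTCATTGTGGGATCT
SQLE A_72_P444903: attCAGTATCTGAGACAAGTCATTGTGGGA
MSMO1 A_72_P641785: tcttggcTGCAAAGTGATCAAAAGAACATT
MSMO1 A_72_P608999: gTGCAAAGTGATCAAAAGAACATTaACAAC
The next 6 carry the results below. The brightest probes of MSMO1, IDI1 and FDFT1 and the second INSIG1 probe are shown by their first 30 bases, and the second FDFT1 and the brightest INSIG1 probe are shown whole. Outside the overlapping pairs, probes of a gene shared no run longer than 6 bases. Letters are as in the array files, and the strand was not checked.
MSMO1 A_72_P098986: gtttgaggtgattctctttcttcgaggagt
IDI1 O10086: ctgagccttatagtaaattcgtgtcagata
FDFT1 O10068: gcaggattgcctttggccctatcatttttg
FDFT1 A_72_P098361: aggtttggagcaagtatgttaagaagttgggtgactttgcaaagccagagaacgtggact
INSIG1 A_72_P186291: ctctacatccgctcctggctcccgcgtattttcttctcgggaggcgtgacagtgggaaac
INSIG1 A_72_P442208: gattgccttgtaaaaagaagagtgcgtgtg

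All 13 measured probes were lower in HF than in LF pigs, and 11 of them, with at least 1 probe of each of IDI1, FDFT1, SQLE, MSMO1 and INSIG1, passed the call. A probe was called at a raw p under 0.01, a fold over 1.1 and a Benjamini-Hochberg (BH) adjusted p under 0.08 over the 43355 probes tested with limma, in a model with diet, line and their interaction. Diet differences ranged from -0.51 to -0.17 on the log2 scale, with a median of -0.38, beside a median of -0.02 over all probes tested. Among all probes tested, 23.1% were called for diet in either direction and 14.5% were called as lower in HF pigs, and by the brightest probe of each gene 19.0% of 9701 genes were called as lower. The 7 genes were chosen with earlier results of these data known, and probes of a gene share its transcript, so the 11 probes are not 11 separate observations. In whole tissue, fewer cells of a type and less RNA per cell cannot be told apart.

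Values are on the log2 scale, the spot's median signal relative to the median of all probes on that array, so a difference is relative to the median probe of the array. The array medians themselves were higher in HF pigs when set against the spike-in control transcripts, and centring on those transcripts instead moved the median diet difference of all probes by 0.13. On that scale all 13 probes were still lower in HF pigs, but 5 were called, IDI1 and the 4 probes of MSMO1, where 3.11% of all probes were called as lower. With quantile normalization 9 were called, and 10.8% of all probes were called as lower.

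MSMO1, the sterol C4-methyl oxidase that starts the removal of the C4 methyl groups from lanosterol products, had the largest diet difference of the 5 measured genes. In the 24 LF pigs its lowest, median and highest values were 4.55, 4.95 and 5.91, and in the 24 HF pigs they were 3.91, 4.40 and 5.32. The values overlapped between diets, but 15 of the 24 HF pigs were lower than every LF pig, and 18 of the 24 lowest values were of HF pigs. The diet difference was -0.51 on the log2 scale (SE 0.10, 95% confidence interval from -0.71 to -0.31, BH adjusted p = 2.00e-04 in limma), a level 29.7% lower in HF pigs. By group the means ± SD (n = 12) were 5.02 ± 0.21 in LF low RFI pigs, 5.03 ± 0.43 in LF high RFI pigs, 4.52 ± 0.32 in HF low RFI pigs and 4.50 ± 0.44 in HF high RFI pigs. The other 3 measured MSMO1 probes differed by between -0.49 and -0.48, and all were called. The fifth probe, O4097, was well above background on 11 arrays and was not tested. At a fold over 1.1, MSMO1 kept its call with every scaling, model and filter tried and in each line alone.

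SQLE, or squalene epoxidase, carries out the first oxygen-using step of the pathway. In the 24 LF pigs its lowest, median and highest values were 2.77, 3.76 and 4.61, and in the 24 HF pigs they were 2.29, 3.13 and 4.35. The ranges overlapped over most of their length, with 4 HF pigs lower than every LF pig and 3 LF pigs higher than every HF pig. The diet difference was -0.48 on the log2 scale (SE 0.15, 95% confidence interval from -0.77 to -0.19, BH adjusted p = 0.0113 in limma). The group means ± SD (n = 12) were 3.80 ± 0.42 in LF low RFI pigs, 3.73 ± 0.56 in LF high RFI pigs, 3.20 ± 0.55 in HF low RFI pigs and 3.37 ± 0.55 in HF high RFI pigs, and the SD within groups was the largest of the brightest probes of the 5 genes, at 0.52. The overlapping probe differed by -0.48 and was called, as was O12690 at -0.30. The fourth probe, A_72_P705210, had a value of -0.28 (SE 0.12, raw p = 0.0235) and was not called.

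IDI1, the isomerase that interconverts the isoprenoid building blocks, lay close to the array median in brightness and was well above background on 47 of the 48 arrays. In the 24 LF pigs its lowest, median and highest values were -0.93, -0.22 and 0.34, and in the 24 HF pigs they were -1.28, -0.76 and 0.00. Of the HF pigs, 20 were lower than the LF mean, and 4 were lower than every LF pig. The diet difference was -0.38 on the log2 scale (SE 0.09, 95% confidence interval from -0.56 to -0.20, BH adjusted p = 0.00141 in limma). The group means ± SD (n = 12) were -0.21 ± 0.28 in LF low RFI pigs, -0.41 ± 0.36 in LF high RFI pigs, -0.61 ± 0.26 in HF low RFI pigs and -0.78 ± 0.38 in HF high RFI pigs. IDI1 kept its call with every scaling, model and filter that tested it, and lost it in high RFI pigs alone, at -0.36 ± 0.14 (SE).

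FDFT1, or squalene synthase, is the first enzyme committed to sterols. In the 24 LF pigs its lowest, median and highest values were 6.19, 6.77 and 7.08, and in the 24 HF pigs they were 6.02, 6.57 and 6.92. Here 9 LF pigs were higher than every HF pig, while 1 HF pig was lower than every LF pig. The diet difference was -0.22 on the log2 scale (SE 0.07, 95% confidence interval from -0.36 to -0.09, BH adjusted p = 0.00990 in limma). The group means ± SD (n = 12) were 6.81 ± 0.20 in LF low RFI pigs, 6.77 ± 0.24 in LF high RFI pigs, 6.64 ± 0.20 in HF low RFI pigs and 6.49 ± 0.29 in HF high RFI pigs. The second probe, A_72_P098361, differed by -0.25 (SE 0.08, BH adjusted p = 0.0192). The brightest probe lost its call with quantile normalization, where the difference was -0.14, and the second probe kept it.

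INSIG1, the endoplasmic reticulum protein that retains the SREBP complex and is itself a target of SREBP, had the smallest difference of the 5 measured genes. In the 24 LF pigs its lowest, median and highest values were 3.02, 3.56 and 3.98, and in the 24 HF pigs they were 3.06, 3.38 and 3.71. No HF pig was lower than every LF pig, and 8 LF pigs were higher than every HF pig. The diet difference was -0.17 on the log2 scale (SE 0.06, 95% confidence interval from -0.28 to -0.06, BH adjusted p = 0.0189 in limma). The group means ± SD (n = 12) were 3.55 ± 0.18 in LF low RFI pigs, 3.57 ± 0.27 in LF high RFI pigs, 3.38 ± 0.16 in HF low RFI pigs and 3.40 ± 0.15 in HF high RFI pigs. The second probe, A_72_P442208, gave the same mean difference, -0.17, but with an SE of 0.17 it was not called (BH adjusted p = 0.476), and its SD within groups was 0.61 against 0.19 for the brightest probe. With spike-in centring the difference of the brightest probe was -0.05 and was not called. It also lost its call under centring on the 75th percentile and under quantile normalization, at -0.15 and -0.13.

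**Figure D1:**
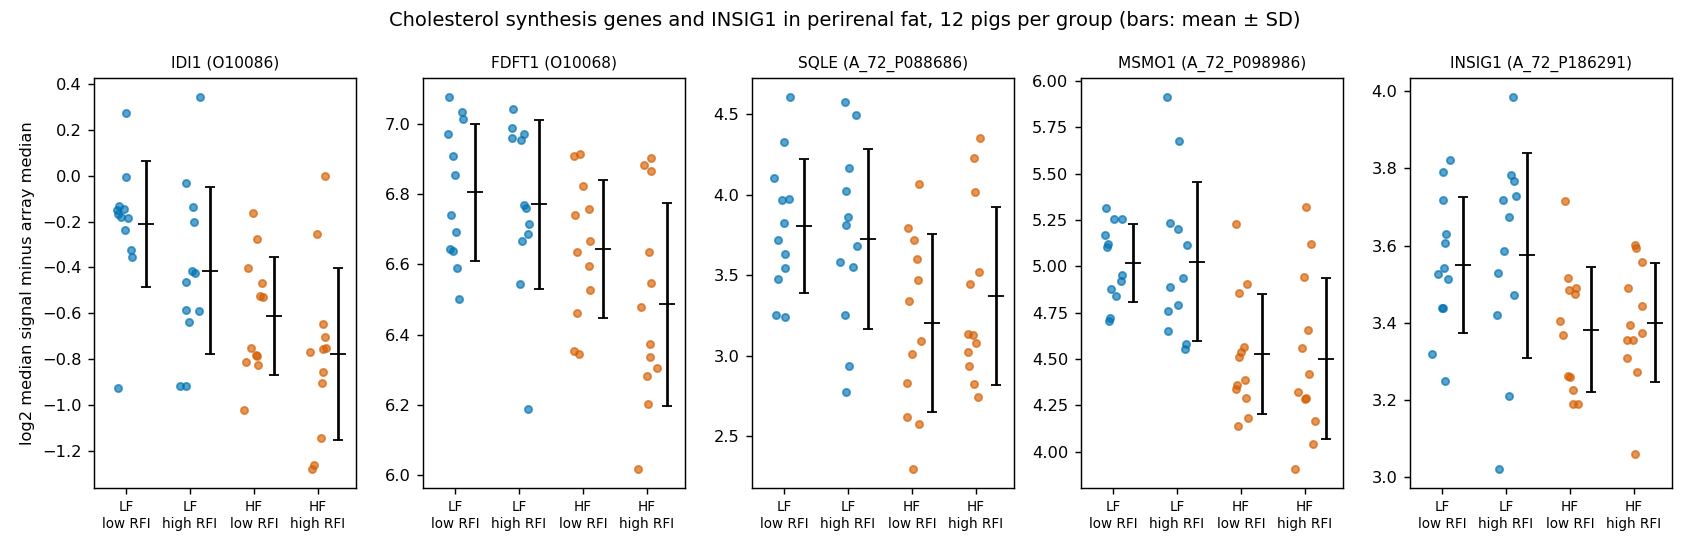
Log2 median signal minus the array median of the brightest probe of IDI1, FDFT1, SQLE, MSMO1 and INSIG1 in each of the 48 pigs. Points are pigs, LF in blue and HF in orange, with 12 pigs per group, and bars show the mean ± SD of the group. The HF groups sit lower than the LF groups in each panel with overlapping ranges, most clearly for MSMO1, and each panel has its own scale.

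**Figure D2:**
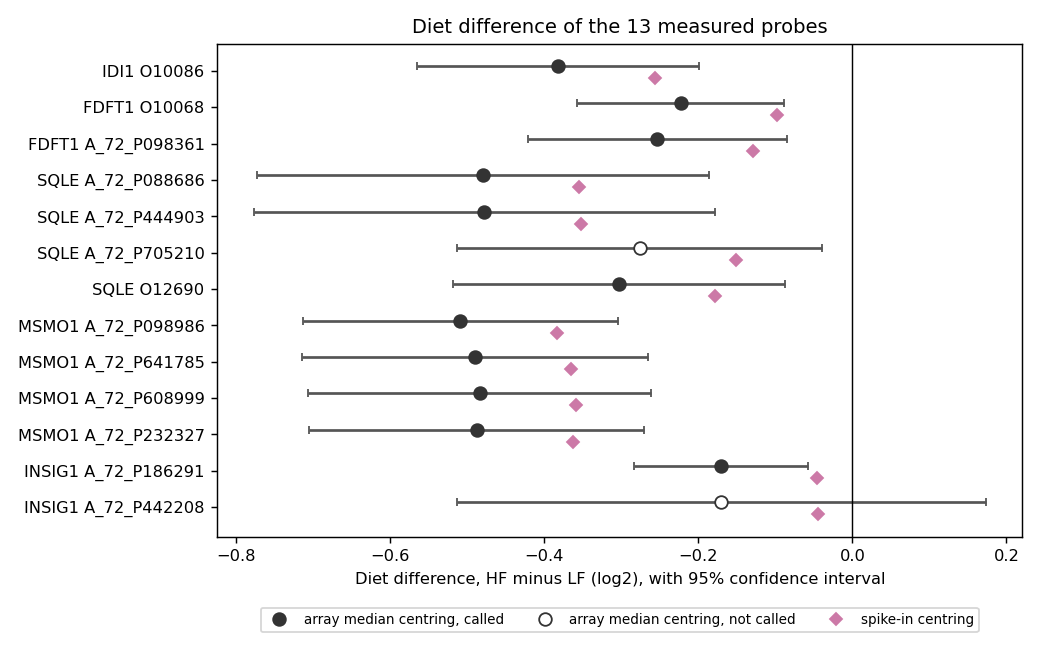
Diet difference (HF minus LF, log2) of the 13 measured probes with 24 pigs per diet. Circles with 95% confidence intervals are values centred on the array median, filled where called, and diamonds are the same differences with spike-in centring. All circles and diamonds lie left of 0, the 4 MSMO1 probes between -0.51 and -0.48, and only the interval of the second INSIG1 probe crosses 0.

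HMGCS1, which makes the precursor of mevalonate, and DHCR7, which carries out a last step to cholesterol, could not be compared between diets with the probes that carry their names. The 2 HMGCS1 probes were well above background on 3 and on 1 of the 48 arrays, and the DHCR7 probe on none. No diet difference is given for these probes, and the closing observations give 2 other probes described as similar to the reductase of DHCR7.

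The arrays lay on 6 slides with 2 pigs of each group on every slide, so the diet difference could be read within each slide. The difference of diet means was below 0 on all 6 slides for IDI1, FDFT1, SQLE and MSMO1, and on 5 of 6 for INSIG1, with 0.012 on the remaining slide. For MSMO1 the slides gave values between -0.86 and -0.25, and for SQLE between -0.91 and -0.23. With slide as a block the same 11 probes were called.

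The line of the pigs did not give a called difference for any of the 13 probes, where 3.38% of all probes were called for line. The limma estimates, low minus high RFI, lay between -0.10 and 0.18. IDI1 was the 1 probe with an unadjusted p under 0.05 in limma (difference 0.18, 95% confidence interval from 0.00 to 0.37, p = 0.0478, BH adjusted p = 0.390), and the two-way analysis of variance gave 0 at that level. For MSMO1 the difference between lines was 0.01, with an interval from -0.20 to 0.21.

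In each line taken alone, all 13 probes were lower in HF pigs. The MSMO1 difference was -0.49 ± 0.11 (SE) in low RFI pigs and -0.52 ± 0.17 in high RFI pigs. That of SQLE was -0.60 ± 0.19 in low RFI pigs and -0.36 ± 0.21 in high RFI pigs. With 24 pigs in place of 48, 7 of the 13 probes were called in low RFI pigs and 5 in high RFI pigs, where 8.02% and 8.82% of all probes were called as lower. The interaction of diet and line was called for 0 of the 13 probes, as for 0% of all probes tested, and 0 of the 13 had an unadjusted p under 0.05 by limma or by the analysis of variance. Over all probes, limma gave 1000 with an interaction p under 0.05 and the analysis of variance 982, with 0 called by either. The 95% confidence interval of the interaction, the diet difference in low RFI pigs minus that in high RFI pigs, ran from -0.38 to 0.44 for MSMO1 and from -0.83 to 0.34 for SQLE.

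The rest of the pathway was read from a list of 15 other sterol synthesis enzymes, of which 13 had a tested probe. By the brightest probe, 9 of the 13 fell in HF pigs, 1 rose and 3 were not called, and the median difference was -0.25, beside -0.05 over all genes. Values for single genes are limma differences ± SE with BH adjusted p over all probes. The lower and higher calls over all genes were 19.0% and 6.05%. Among the mevalonate enzymes, the kinase MVK had the largest fall of the list (-0.72 ± 0.16, adjusted p = 8.45e-04), and its 4 tested probes were all called as lower. In the 24 LF pigs MVK ranged from 2.81 to 4.44 around a median of 3.78, and in the 24 HF pigs from 1.76 to 4.52 around a median of 2.95, so the ranges overlapped and the highest pig of all was an HF pig. The next kinase of that arm, PMVK, fell by less (-0.29 ± 0.08), as did GGPS1 (-0.25 ± 0.05), which draws isoprenoids away to protein prenylation. FDPS, which joins the isoprenoid units, was not called at -0.14 (adjusted p = 0.325), nor was ACAT2, the thiolase at the start, at -0.24 (adjusted p = 0.0886).

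After squalene, LSS, which closes the ring to lanosterol, fell by 0.41 on the log2 scale. The demethylase CYP51A1 differed by -0.27 ± 0.08, NSDHL, which works with MSMO1, by -0.20 ± 0.07 and SC5D by -0.29 ± 0.09, and all 3 fell. HSD17B7 was not called, with a difference of 0.03. The step after CYP51A1 can be run by either of a pair of reductases, and they moved in opposite directions. TM7SF2 fell (-0.56 ± 0.14, adjusted p = 0.00240) and was lower than the LF mean in 22 of 24 HF pigs, whereas LBR, also a protein of the nuclear envelope, rose (0.26 ± 0.06, adjusted p = 0.00168) and was lower than the LF mean in 2 HF pigs. With spike-in centring 3 enzymes, MVK, LSS and TM7SF2, were called as lower and LBR as higher. On that scale 3.11% of all probes were called as lower, and the share called as higher was not counted. The median was -0.12 beside 0.08 over all genes.

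**Figure D3:**
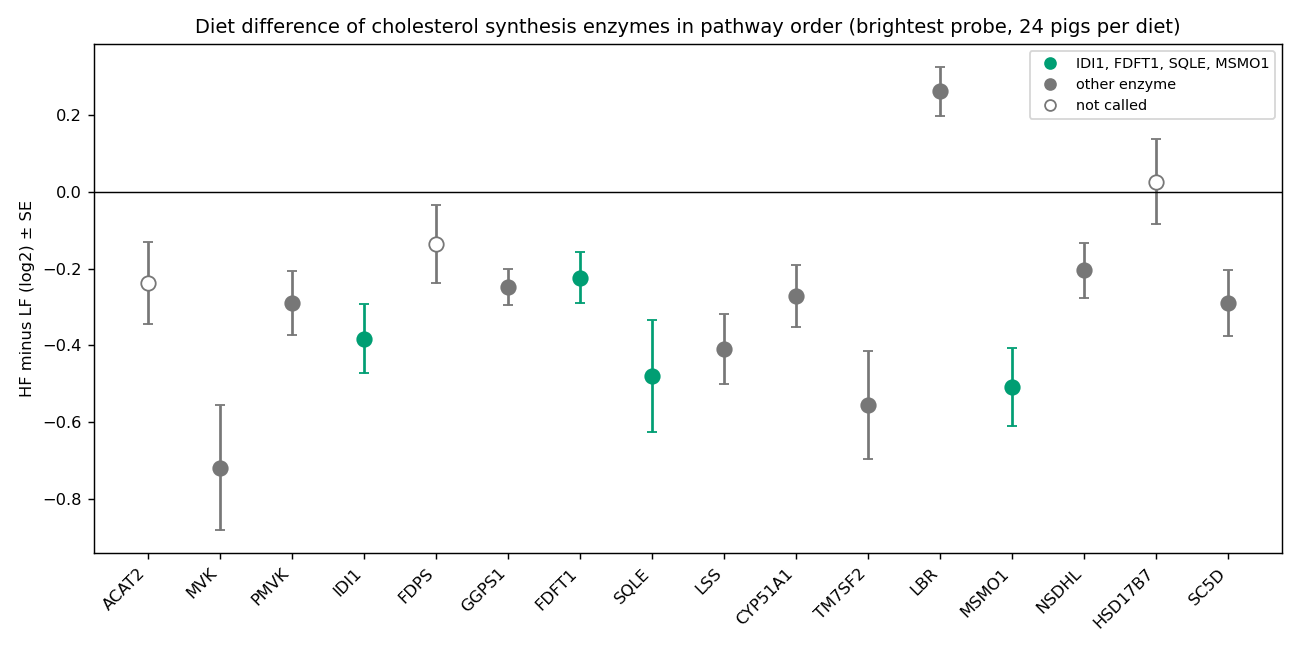
Diet difference (HF minus LF, log2) ± SE of the cholesterol synthesis enzymes named in the text, each by its brightest probe, in the order in which they act (GGPS1 is on a side branch, and TM7SF2 and LBR share a step). Filled points were called and open points were not, and the green points are 4 of the 7 genes described here. Points lie below 0 except LBR at 0.26 and HSD17B7 at 0.03.

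The genes that sense sterols and control SREBP were read in the same way. Of 9 such genes 8 had a tested probe, and by the brightest probe 0 fell and 1 rose, with a median of -0.04, close to that of all genes. Over all genes 19.0% were called as lower and 6.05% as higher, and counts among 8 genes were not tested against these shares. SREBF2, which codes for SREBP-2, had a mean of 5.80 ± 0.11 in LF pigs and of 5.76 ± 0.10 in HF pigs (SD, n = 24), a difference of -0.05 ± 0.03, adjusted p = 0.299. For SREBF1 the brightest probe differed by -0.07 ± 0.08, adjusted p = 0.538. Its second probe differed by -0.09 ± 0.06 and was not called, whereas the remaining probe, O13456, was called as lower (-0.31 ± 0.10, adjusted p = 0.0117) but not with spike-in centring (-0.19). The difference was -0.05 ± 0.05, adjusted p = 0.461 for SCAP, the sterol-sensing escort of SREBP, and -0.09 ± 0.05, adjusted p = 0.155 for INSIG2, the paralogue of INSIG1. MYLIP, a ubiquitin ligase that acts on lipoprotein receptors and is a target of the liver X receptors, rose (0.22 ± 0.07, adjusted p = 0.0256). NR1H3, one of those receptors, differed by 0.12 ± 0.05 and was not called. Under spike-in centring MYLIP and NR1H3 were both called as higher, and the brightest probes of SREBF1, SREBF2, SCAP and INSIG2 differed by between 0.04 and 0.08, above 0 and not called. On that scale the median over all genes was 0.08, and the share of all genes called as higher was not counted.

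In the list for lipoprotein and sterol uptake, trafficking, storage and export, 11 of 12 genes had a tested probe, 3 fell, 1 rose and 7 were not called, with a median of 0.02. By the brightest probe, 19.0% of all genes were called as lower and 6.05% as higher. The 3 that fell were LIPA, NPC1 and STARD4. LIPA, the lysosomal lipase that frees cholesterol from its esters, differed by -0.29 ± 0.06, NPC1, which carries it out of the lysosome, by -0.38 ± 0.10, and STARD4, a soluble sterol carrier, by -0.37 ± 0.12. STARD3, a sterol-binding protein of late endosomes, rose (0.27 ± 0.05, adjusted p = 3.24e-05). The receptors VLDLR, SCARB1 and LRP1 differed by -0.15 ± 0.06, 0.18 ± 0.07 and 0.04 ± 0.04 and were not called, and the exporter ABCA1 at 0.16 ± 0.13 was not called. The split moved with the centring, with 0 called as lower and 3, LRP1, SCARB1 and STARD3, as higher under spike-in centring. The median of the list was then 0.15, beside 0.08 over all genes. On that scale 3.11% of all probes were called as lower, and the share of all genes called as higher was not counted.

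Fatty acid synthesis, the main SREBP-1 pathway of adipose tissue, was set beside these lists. By the brightest probe all 6 of its enzymes fell, where 19.0% of all genes were called as lower. The median was -0.85, with ME1 at -1.25 ± 0.19, ACLY at -0.93 ± 0.16, ACACA at -0.90 ± 0.15, ELOVL6 at -0.80 ± 0.15, SCD at -0.75 ± 0.15 and FASN at -0.22 ± 0.05. With spike-in centring 5 of the 6 were called as lower, all but FASN, where 3.11% of all probes were called as lower.

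From pig to pig, MSMO1 and SQLE varied together in both diets. Correlations were computed on deviations from the means of the 4 groups, so that diet and line do not enter, with 100000 permutations of pigs within groups, two-sided, and BH adjustment over the 10 pairs of 5 genes. For SQLE and MSMO1 Pearson's r was 0.81 and Spearman's rho 0.84 over 48 pigs, each with a permutation p of 1e-05, the smallest that these permutations can give, and a BH adjusted p of 1.00e-04 for r. It was 0.78 without the 2 pigs farthest from the median of SQLE, 0.85 in the 24 HF pigs and 0.75 in the 24 LF pigs. In all, 8 of the 10 pairs had an adjusted p under 0.05 by r, and the other two were SQLE with INSIG1 and MSMO1 with INSIG1.

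IDI1 and FDFT1 gave r = 0.55 and rho = 0.52 (permutation p = 1.60e-04 and 2.00e-04, BH adjusted p = 8.00e-04 and 6.67e-04), and r = 0.58 without the 2 pigs farthest from the median of IDI1. IDI1 and MSMO1 gave r = 0.48 and rho = 0.51 (permutation p = 0.00156 and 7.00e-04, BH adjusted p = 0.00390 and 0.00175), and r = 0.60 without the 2 pigs farthest from the median of IDI1. The remaining called pairs among the 4 enzymes were weaker, with r = 0.46 and rho = 0.47 for FDFT1 and MSMO1 (BH adjusted permutation p = 0.00484 and 0.00252). For FDFT1 and SQLE they were r = 0.41 and rho = 0.40 (adjusted p = 0.00993 and 0.00835). For IDI1 and SQLE they were r = 0.35 and rho = 0.41 (adjusted p = 0.0271 and 0.00835). Without the 2 farthest pigs these 3 pairs gave r = 0.41, 0.34 and 0.46.

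By its brightest probe INSIG1 varied with FDFT1, while no correlation with SQLE was detectable. With FDFT1 it gave r = 0.51 and rho = 0.60 (permutation p = 3.20e-04 and 4.00e-05, BH adjusted p = 0.00107 and 2.00e-04), and r = 0.47 without the 2 pigs farthest from the median of FDFT1. With IDI1 it gave r = 0.34 (adjusted permutation p = 0.0299) and rho = 0.40 (adjusted p = 0.00835), with r = 0.29 without the 2 farthest pigs. With SQLE it gave r = 0.03 and rho = 0.09 (adjusted permutation p = 0.858 and 0.530), and with MSMO1 r = 0.11 and rho = 0.20 (adjusted p = 0.567 and 0.209). Without the 2 farthest pigs r was 0.05 with SQLE and 0.32 with MSMO1, so the value for MSMO1 rests on those pigs. For MSMO1 it was 0.44 in the 24 HF pigs (adjusted permutation p = 0.0580) and -0.15 in the 24 LF pigs (adjusted p = 0.608). In the 24 HF pigs IDI1 and INSIG1 had r = 0.68 (adjusted permutation p = 0.00140), and in the 24 LF pigs r = 0.12 (adjusted p = 0.617), and for neither pair was the difference between diets tested.

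The INSIG1 probes A_72_P186291 and A_72_P442208, which share no run longer than 5 bases, correlated with r = 0.55 and rho = 0.52 (permutation p = 3.70e-04 and 5.50e-04, BH over 14 pairs of probes of a gene 3.70e-04 and 5.50e-04), and r was 0.48 without the 2 farthest pigs. The second probe gave r = 0.47 and rho = 0.35 with MSMO1 (permutation p = 0.00175 and 0.0191, BH over 6 relations 0.0105 and 0.0573, r = 0.56 without the 2 farthest pigs), and its difference from the value of the brightest probe was not tested. With FDFT1, IDI1 and SQLE the second probe gave r = 0.40, 0.35 and 0.29 (BH adjusted permutation p = 0.0226, 0.0434 and 0.0893). The values of rho were 0.37, 0.30 and 0.16 (BH adjusted permutation p = 0.0573, 0.0920 and 0.356). For comparison, the 2 FDFT1 probes gave r = 0.53, the SQLE probes that do not overlap between 0.76 and 0.88, and the MSMO1 probes at least 0.94, all with a BH adjusted permutation p of at most 1.94e-04.

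**Figure D4:**
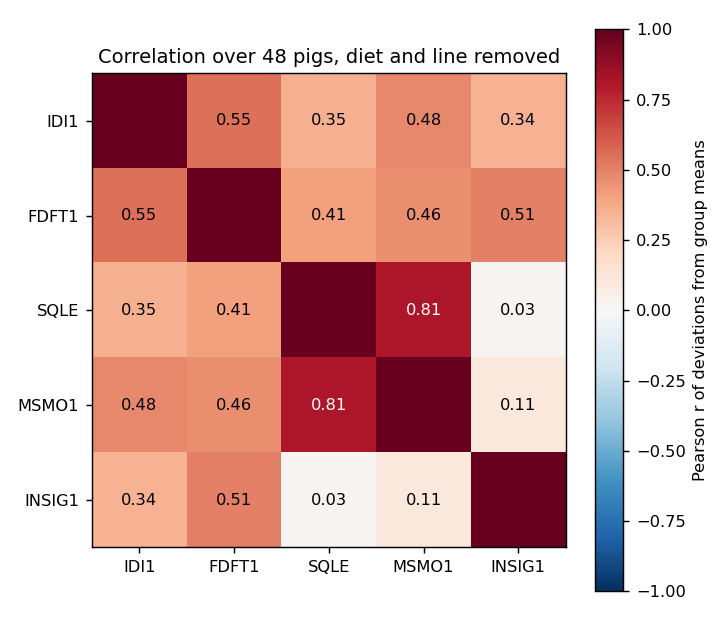
Pearson correlation between IDI1, FDFT1, SQLE, MSMO1 and INSIG1 over 48 pigs, on deviations of the brightest probes from the 4 group means. Colour and number give r from -1 to 1. SQLE and MSMO1 have the highest value, 0.81, and INSIG1 with SQLE the lowest, 0.03.

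**Figure D5:**
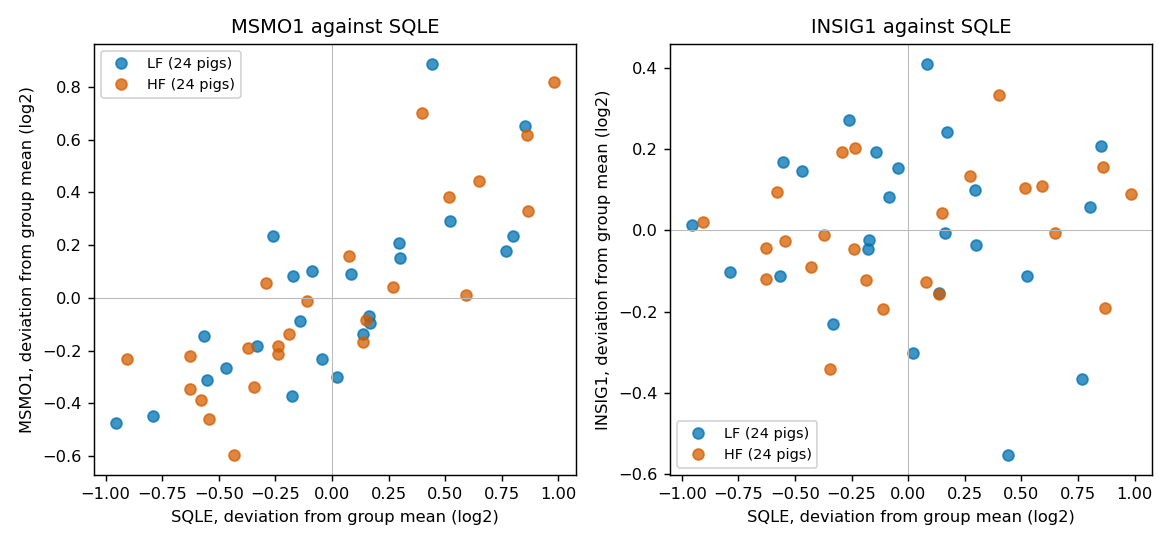
Deviation from the group mean (log2) of MSMO1 and of INSIG1 plotted against that of SQLE, each point 1 pig, LF in blue and HF in orange (24 pigs each). The MSMO1 points rise along SQLE in both diets, r = 0.81, while the INSIG1 points show no visible slope, r = 0.03.

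The genes whose pattern over pigs was most like that of the 5 genes included further enzymes of the pathway. Likeness was Pearson's r over the 48 pigs between the mean of the standardised deviations of the 5 genes and the deviations of the brightest probe of each of 9671 other genes, given as a description. CYP51A1 came first with r = 0.81. ACAT2 (0.73), TM7SF2 (0.69) and SC5D (0.68), all sterol enzymes, were also among the first 10, although ACAT2 was not called for diet. Outside the pathway, the 8 of them named here held C5H12orf45 (0.71), TIMM44, a part of the mitochondrial import motor (0.70), NAP1L5 (0.69) and the retinol dehydrogenase RDH11 (0.68). Of the 13 other sterol enzymes 6 ranked among the first 100 genes, with a median r of 0.51 against 0.07 over all genes. The 6 fatty acid enzymes had a median r of 0.45, and the 8 genes of sterol sensing one of 0.11.

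The levels of SREBF1 and SREBF2 had no detectable correlation with the enzymes. Over 10 relations of the 5 genes with SREBF1 and SREBF2, those of IDI1, FDFT1, SQLE and MSMO1 had r between -0.33 and 0.21 and rho between -0.31 and 0.28, with BH adjusted permutation p of at least 0.0833. INSIG1 and SREBF2 gave r = 0.55 and rho = 0.59 (BH adjusted permutation p = 2.00e-04 and 2.00e-04), and r = 0.56 without the 2 farthest pigs. INSIG1 and SREBF1 gave r = 0.45 and rho = 0.43 (BH adjusted permutation p = 0.0116 and 0.0159), and r = 0.35 without the 2 farthest pigs. The second INSIG1 probe gave r = 0.11 with SREBF2 (permutation p = 0.464) and r = 0.12 with SREBF1 (permutation p = 0.443). In the 30 pigs with little of the liver marker ALB, described below, INSIG1 and SREBF2 had r = 0.33 with an adjusted permutation p of 0.306. There INSIG1 and SREBF1 had r = 0.20 with an adjusted permutation p of 0.443.

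Other tissues in the samples were checked with marker lists. The adipocyte markers ADIPOQ, PLIN1, FABP4, LIPE, CIDEC and LPL were all detected on 48 arrays, and their mean level ranged from 9.43 to 9.94 in HF pigs and from 9.54 to 9.98 in LF pigs, with 1 of 6, CIDEC, called as lower. All but ADIPOQ (0.08) were lower in HF pigs, with a median of -0.13 beside -0.05 over all genes. Without a call, limma gave raw p = 0.00460 for FABP4 (-0.10), 0.0138 for LIPE (-0.14) and 0.0299 for LPL (-0.20). Against 6.05% of all genes called as higher in HF pigs, 4 of 6 macrophage markers rose, C1QA by 0.80, CD163 by 0.70, CSF1R by 0.48 and AIF1 by 0.36. Their mean level over the 6 genes ranged from 1.56 to 3.52 in HF pigs and from 1.41 to 3.24 in LF pigs. With that mean level as a covariate, an alternative added after seeing the data, all 13 probes were still lower in HF pigs and 5 were called, IDI1 and the 4 probes of MSMO1, where 10.6% of all probes were called as lower. The SQLE difference was then -0.35 ± 0.16 (SE), that of FDFT1 -0.13 ± 0.07 and that of MSMO1 -0.45 ± 0.11. Of the 13 other sterol enzymes 5 were then called as lower and 1 as higher, and of the 6 fatty acid enzymes 6 as lower. Over pigs of a group, FDFT1 was lower where the macrophage level was higher, with r = -0.43 and rho = -0.43 (BH adjusted permutation p over 10 relations = 0.0306 and 0.0368, r = -0.40 without the 2 farthest pigs).

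Some samples also gave signal for liver genes. ALB, the gene of serum albumin, ranged from -1.65 to 6.04 in HF pigs and from -1.12 to 9.11 in LF pigs, with medians of 0.46 and 1.62. It exceeded 2 on 18 arrays, 6 of HF low RFI, 1 of HF high RFI, 6 of LF low RFI and 5 of LF high RFI pigs. SERPINA1 had a similar spread, from -2.12 to 6.44, whereas APOA1 lay between 7.39 and 8.93 on all arrays, and none of the 3 was called for diet. Without a call, limma gave raw p = 0.0353 for SERPINA1 (-1.39), 0.0764 for ALB (-1.51) and 0.894 for APOA1 (-0.01). In the 30 arrays with ALB at or below 2, a limit set after seeing the data, 12 of the 13 probes were called as lower, among 16.5% of all probes. The differences there were -0.59 ± 0.12 (SE) for MSMO1, -0.59 ± 0.18 for SQLE and -0.55 ± 0.12 for IDI1. They grew by over 1.5 times for FDFT1, to -0.36 ± 0.08, and for INSIG1, to -0.32 ± 0.05, and the second INSIG1 probe was called at -0.55 ± 0.19. With the mean level of the 3 liver genes as a covariate in all 48 pigs, the same 11 probes were called, among 14.7% of all probes.

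Correlations between the genes were fewer in those 30 pigs, where 2 of 10 pairs had an adjusted permutation p under 0.05, SQLE with MSMO1 at r = 0.88 and FDFT1 with INSIG1 at r = 0.65. IDI1 and MSMO1 had r = 0.26 there. Of 7 marker genes of the adrenal gland, which lies beside this fat and uses cholesterol for steroids, 4 were tested. CYP17A1 and MC2R were not well above background on at least 24 arrays and CYP11B1 had no probe. CYP11A1 was well above background on 48 arrays, from -0.50 to 0.29 in HF pigs and from -0.43 to 0.07 in LF pigs, and CYP21A2 on 47, and neither was called for diet. The mean level of the 4 ranged from -0.35 to 0.78 in HF pigs and from -0.21 to 1.09 in LF pigs. STAR ranged from -0.37 to 3.15 in HF pigs and from -0.51 to 4.0 in LF pigs and was not called for diet, and NR0B1 fell by 0.41. The part of adrenal RNA in the differences was not tested.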

How the data were processed

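RNA of perirenal fat from 48 pigs (Cy3-labelled) was read on Agilent porcine one-colour arrays, 1 for each pig, on 6 slides scanned on 2 days, with 2 arrays of every group on each slide. Spot intensity values and flags came from the Agilent software the authors ran, and were deposited without normalization between arrays. A table of log2 values, filtered and centred on the median of each array by the authors, was deposited for 38142 probes. Its row names did not match its values, which were traced to spots within a relative tolerance of 1e-06, and it served as an alternative. The number of arrays limits the precision, median signal was 115 to 178 per array and median background 23 to 33.

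The value of a probe was log2 of the median signal minus the array median over the 60306 spots that are not controls. Spots flagged as non-uniform or as population outliers (0.00684% of spots, none of the 17 probes described) were left out, and no spot of these probes was saturated. Of 60305 probes, 43355 were well above background on at least 24 arrays and entered the fit (limma 3.58.1 under R 4.3.3, with lmFit and eBayes). The fit was tested on simulated data. Correlations were computed in Python 3.11.15 with numpy 2.4.6 and scipy 1.17.1. Genes were named from the files' gene names, or through accessions and synonyms in RefSeq tables, and 36390 probes stayed without a name. A gene is represented by its brightest probe, by the mean of 48 arrays. No genome build is named in the sources used here, and no coordinates are given. The sequences are those of the array files.

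The genes, the pathway lists and the marker lists were chosen with earlier results of these data known. The named genes were all probes of the 7 genes, of the sterol, sensing and uptake lists up to 8 called genes with SREBF1, SREBF2, SCAP and INSIG2 always, and the 10 genes most alike over pigs. NSDHL and the genes of the lists that were not called were named beyond this rule, after their values were seen. The marker lists also held T and NK cells (1 of 4 genes tested called as higher, NKG7), B and plasma cells (0 of 2), endothelium (0 of 4), fibroblasts (0 of 5), erythrocytes (0 of 3), skeletal muscle (0 of 4), kidney (AQP2, the 1 gene tested, called as lower), mesothelium (0 of 1) and brown fat (CIDEA called as lower of 2). These counts are by the brightest probe. Beside the zero counts, raw p under 0.05 was found for COL3A1 (fibroblasts) and for ACTA1, MYH1 and MYH7 (muscle). Of all tested muscle probes, 4 of 6 of MYH7, 1 of 11 of CKM, 0 of 10 of ACTA1 and 0 of 1 of MYH1 were called as lower. Over all genes, by the brightest probe, 19.0% were called as lower and 6.05% as higher. Alternatives were other scalings and background corrections, filters, models, blocks, thresholds, each line alone and averaged probes, and those on liver and macrophage markers were added after seeing the data. The values of a few single genes are left out of the text.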

Additional observations from a re-analysis of the deposited data

How the results depend on the processing

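All 13 probes were lower in HF pigs under each alternative that tested them, while the number called as lower, 11, moved with some choices. It was 5 with spike-in centring, 7 in low RFI pigs only, 5 in high RFI pigs only, 5 with the macrophage marker level as a covariate and 0 at a fold over 1.5, and between 8 and 12 under the other 17 alternatives. The replicate block gave 11. Pigs of the same replicate number had deviations correlated at a median of 0.13, against -0.01 for different numbers. Of 72 same-numbered pairs 38 were correlated over 0.1, and 17 of 48 samples correlated best with their own number. Each slide held 2 replicate numbers of every group, and likeness by number was not separated from likeness by slide. Whether the numbers pair the pigs was not settled. At the unchanged threshold MSMO1 kept its call under all 21 alternatives, with differences between -0.59 and -0.38. IDI1 lost it in 1 of 20, SQLE in 3 of 21, FDFT1 in 6 of 21 and INSIG1 in 8 of 21, and none of these settings turned the direction. Within single slides, with no test, INSIG1 turned to 0.012 on 1 slide. Calls for line and for the interaction stayed at 0 under all 17 and 16 alternatives, which say nothing of differences smaller than the intervals given. Of the 10 pairs of genes, 8 were correlated at an adjusted p under 0.05, which was 5 in HF pigs alone, 3 in LF pigs alone, 2 in the 30 pigs with ALB at or below 2, and between 8 and 9 under the other 5 alternatives. The means of the probes of a gene gave MSMO1 and INSIG1 r = 0.45, past the threshold. The cause of these changes was not tested, except that a single diet or line leaves 24 of the 48 pigs. Signal over background limited the named probes of HMGCS1 and DHCR7, which could not be tested.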

Other observations

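Beyond the probes that carry the names of the 7 genes, 3 probes are described in the array files only as similar to them, and they were looked at after their descriptions were found. Probes A_72_P144016 and A_72_P224342 are described as similar to 7-dehydrocholesterol reductase, the enzyme of DHCR7, of other mammals, and were well above background on 48 arrays, unlike the DHCR7 probe itself. The first gave 0.60 ± 0.19 in LF and 0.54 ± 0.19 in HF pigs (SD, n = 24), a difference of -0.05 ± 0.05 (SE, BH adjusted p = 0.489 in limma). The second gave 2.17 ± 0.63 in LF and 2.03 ± 0.49 in HF pigs (SD, n = 24), a difference of -0.14 ± 0.13 (SE, BH adjusted p = 0.440 in limma). Neither was called. Probe A_72_P095631, described as similar to the isomerase of IDI1, gave 0.85 ± 0.96 in LF and 0.51 ± 0.54 in HF pigs (SD, n = 24), a difference of -0.34 ± 0.22 (SE, BH adjusted p = 0.238 in limma) and was not called. Its values ranged from -0.93 to 3.32 in LF pigs and from -0.39 to 1.45 in HF pigs, a wider spread than that of the named IDI1 probe.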
